A study of Homo sapiens with 16 samples.

Results

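The genes described here are 44 direct transcriptional targets of p53, other than those that act as CDK inhibitors, BCL2 family members, death receptors, DNA repair factors or repressors of p53 itself. They were chosen by gene symbol from a table of 25369 genes, where 43 stand under their own symbol and *TIGAR* stands under its older symbol C12orf5. By their known roles they fall into 11 genes of cell death and survival, 10 of metabolism and transport, 10 ligands, receptors and other membrane or cytoskeletal signalling proteins, 7 genes of transcription, RNA and translation, and 6 kinases, phosphatases and cell cycle regulators. p53 is a transcription factor that binds paired decamers in DNA and, once stabilised, raises transcription of genes that arrest or kill damaged cells or adjust their metabolism. Its ubiquitin ligase MDM2 masks the transactivation domain and marks p53 for degradation. The phosphatase PPM1D, itself a p53 target, removes activating phosphates from p53 and from the kinases upstream of it.

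Expression was measured by stranded polyadenylated RNA-seq in TPC1 and K1, established human papillary thyroid carcinoma lines that carry wild type p53. Cells were treated for 24 h with vehicle (0.2% DMSO), with 10 µM nutlin, which frees p53 from MDM2, with 25 µM GSK2830371, which inhibits PPM1D, or with both drugs. The 8 groups have 2 libraries each, 16 in all, and each line stands for a single tumour. Totals ran from 30789887 to 76648552 read counts in TPC1 and from 28888686 to 37161241 in K1. TPC1 libraries are numbered 1 and 3 as in the columns of counts, whereas the sample labels number them 1 and 2. The TPC1 libraries numbered 1 held 30789887 to 36896529 counts and those numbered 3 held 62853375 to 76648552. Of 10 thyroid follicular markers, *PAX8* and *FOXE1* reached 1 CPM in untreated TPC1 and *TG*, *PAX8* and *FOXE1* did so in untreated K1, while 2 had no count in any library of TPC1 and 2 had none in K1. Of 6 epithelial markers, *KRT7*, *KRT8* and *KRT18* reached 1 CPM in both untreated lines, and *EPCAM*, *CDH1* and *KRT19* did not. Of 5 fibroblast markers, *COL1A1*, *LUM* and *PDGFRB* reached 1 CPM in both untreated lines. Of 4 leukocyte markers, *CD14* reached it in untreated K1. Summed fibroblast markers lay between 4.80 and 22.8 CPM in TPC1 libraries and between 12.9 and 17.6 CPM in K1 libraries, summed leukocyte markers did not exceed 4.58 CPM and summed endothelial markers did not exceed 0.790 CPM in any library.

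Levels are given as CPM, which are counts scaled to a common library size by TMM, with scaling factors between 0.938 and 1.061. The figure after ± is the SD (n = 2) where it follows CPM and the SE where it follows a log2 fold change. A gene is called raised or lowered where the p of the quasi-likelihood test in edgeR, adjusted by Benjamini-Hochberg across every gene tested and written below as the edgeR adjusted p, is under 0.05 and the fold change exceeds 1.5, which is 0.585 on the log2 scale. The study describes its replicates in general as prepared independently of each other, without a statement on these libraries in particular, and p-values measure the spread between the libraries of a group. Target counts at an unadjusted p under 0.05 have no share over all genes beside them, since none was counted at that threshold. They therefore describe the targets alone. Gene positions are those of GENCODE on GRCh37.

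The sequence that p53 reads was searched around the start site of each gene. Among the windows of 2500 bp on either side of the canonical start, 10 of the 44 genes (22.7%) held at least 1 p53 consensus decamer pair, against 748 of 17732 windows of protein-coding genes in the table (4.22%). A match had the 4-base core intact in both decamers, at most 2 mismatches elsewhere and at most 1 base between the decamers. The motif reads alike on either strand, so both were covered. The matches are shown to place this sequence in the 10 genes that hold it, and they are a description of sequence, not evidence of binding. Each is read 5′ to 3′ on the strand of its gene in GRCh37, with the cores in capitals.
*PLK2* chr5:57758101-57758120 - strand: aaaCATGcctggaCTTGccc
*ZMAT3* chr3:178787976-178787995 - strand: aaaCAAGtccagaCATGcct
*PTP4A1* chr6:64283618-64283637 + strand: gaaCAAGtctagtCTTGtcc
*CCNG1* chr5:162864932-162864951 + strand: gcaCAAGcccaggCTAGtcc
*CCNG1* chr5:162866952-162866971 + strand: gacCTAGtcaagaCTTGctt
*EDA2R* chrX:65858405-65858424 - strand: gggCAAGtcagggCTTGtgt
*SPATA18* chr4:52918123-52918142 + strand: ggaCATGtgtgtaCATGccc
*AEN* chr15:89164537-89164556 + strand: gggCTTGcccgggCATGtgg
*PANK1* chr10:91407007-91407026 - strand: aggCAAGcccaggCATGgtg
*CMBL* chr5:10307696-10307715 - strand: acaCAAGcccacaCAAGccc
*GLS2* chr12:56881897-56881916 - strand: aggCTTGctggggCATGcgc
*PLK2* and *ZMAT3* held pairs with 0 mismatches, the first at -2207 bp from the start and the second at 1602 bp in an intron. A single mismatch was present in *PTP4A1*, at 1233 bp, and in the *CCNG1* pair at 331 bp. The pairs in *AEN* (-34 bp) and *PANK1* (-2027 bp) also lay upstream of the start, that of *GLS2* lay in a coding exon at 29 bp, and those of *EDA2R*, *SPATA18*, *CMBL* and the other pair of *CCNG1* lay in introns. Windows without a match include those of *FDXR*, *TP53I3* and *ABCA12*, which says only that these letters were not found within 2500 bp.

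To ask how these targets respond to MDM2 inhibition, nutlin was compared with DMSO in each line. Nearly the whole set responded in TPC1. There, 42 of 44 genes were raised and *STEAP3* was lowered, against 17.5% of all 15273 genes tested that were raised and 18% that were lowered. *IER5*, which encodes a cofactor of heat shock factor 1, was the remaining gene, with a log2 fold change of 0.49 that passed the adjusted p but not the fold threshold. In K1, 33 of the 42 genes that passed the filter were raised and 0 were lowered, against a background of 3.84% raised and 5.43% lowered among 15900 genes. At an unadjusted p under 0.05, edgeR found 1 lower in K1 (*TNFAIP8*, -0.54), a value that became -0.71 and was called without K1 nutlin replicate 1, and DESeq2 called 0 lowered. *PERP*, *TNFAIP8*, *NINJ1*, *STEAP3*, *KITLG*, *PGF*, *RAP2B*, *PLCL2* and *SYTL1* were not called in K1, and *GLS2* and *TP53I11* had too few K1 counts to be tested. The median log2 fold change over the genes was 1.86 in TPC1 and 0.92 in K1, where the median over all genes tested was -0.0018 and -0.0017. A total of 32 genes were raised in both lines, which over all genes could hold for at most the 611 raised in K1. Each library pools many cells, so fewer expressing cells and less RNA per cell cannot be told apart.

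**Figure D1:**
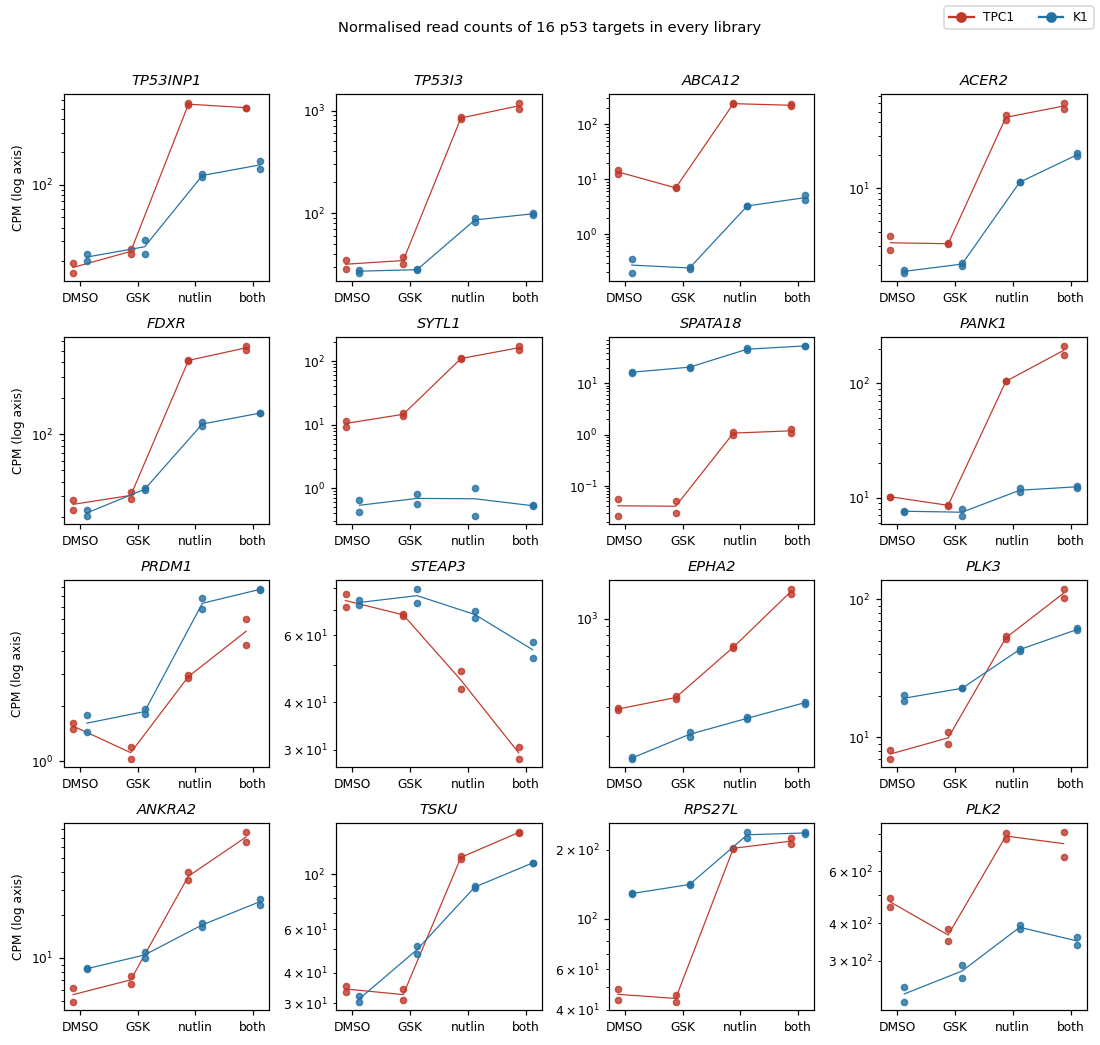
Normalised read counts (CPM, log axis) of 16 p53 targets in each of the 16 libraries, with TPC1 in red and K1 in blue. Points are single libraries and lines join the means of the 2 libraries per group (DMSO, GSK for GSK2830371, nutlin, and both for the combination). Between GSK and nutlin the group means rise most steeply for *ABCA12* and *SPATA18* in TPC1, *STEAP3* falls in TPC1, and *SYTL1* stays below 1 CPM in K1.

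Genes of cell death and survival held the tallest increases of well-expressed genes in TPC1, with all 11 raised in TPC1 and 8 of 11 in K1 and medians of 2.01 and 1.08. *TP53INP1* (chromosome 8, 95938200 to 95961606) encodes a stress-induced nuclear protein that promotes autophagy and cell death. In TPC1 it measured 19.2 and 15.5 CPM in the DMSO libraries, 25.5 and 23.1 CPM with GSK2830371, 563 and 533 CPM with nutlin and 509 and 509 CPM with both drugs. In K1 the same gene gave 23.2 and 19.9 CPM in the DMSO libraries, 22.96 and 30.7 CPM with GSK2830371, 118 and 125 CPM with nutlin and 139 and 165 CPM with both drugs. Nutlin libraries stood far above DMSO libraries in both lines, without overlap, while the libraries with both drugs lay below those with nutlin in TPC1 and above them in K1. Nutlin raised *TP53INP1* by 4.95 ± 0.134 (edgeR adjusted p = 1.0e-08) in TPC1 and by 2.49 ± 0.117 (edgeR adjusted p = 3.5e-09) in K1. *TP53I3* (chromosome 2, 24300303 to 24308731), a quinone oxidoreductase linked to reactive oxygen species, stood at 28.98 and 34.9 CPM in the DMSO libraries, 32.2 and 37.2 CPM with GSK2830371, 828 and 865 CPM with nutlin and 1033 and 1186 CPM with both drugs in TPC1. K1 libraries held 28.3 and 26.4 CPM in the DMSO libraries, 28.1 and 28.4 CPM with GSK2830371, 82.3 and 89.98 CPM with nutlin and 101 and 96.6 CPM with both drugs. The untreated lines differed by a log2 value of -0.23, under the fold threshold, and parted under nutlin, with log2 fold changes of 4.69 ± 0.122 (edgeR adjusted p = 8.6e-09) in TPC1 and 1.66 ± 0.0658 (edgeR adjusted p = 6.4e-10) in K1.

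*SPATA18* (chromosome 4, 52917470 to 52963465), which encodes a protein of mitochondrial quality control, was nearly silent in TPC1. It measured 0.0264 and 0.056 CPM in the DMSO libraries, 0.0298 and 0.0509 CPM with GSK2830371, 1.15 and 1.01 CPM with nutlin and 1.32 and 1.07 CPM with both drugs in that line, where 1 and 4 reads were counted in the DMSO libraries. In K1 it measured 17.1 and 16.03 CPM in the DMSO libraries, 21.2 and 20.4 CPM with GSK2830371, 49.2 and 44.2 CPM with nutlin and 54.0 and 54.2 CPM with both drugs. K1 libraries were above all TPC1 libraries under every treatment. Nutlin changed it by 4.46 ± 0.439 (edgeR adjusted p = 2.7e-05) in TPC1, from 5 counts over both DMSO libraries to 97 over both nutlin libraries, and by 1.49 ± 0.0743 (edgeR adjusted p = 6.0e-09) in K1. The other members of this role were raised in TPC1 by 0.88 (*TNFAIP8*, an inhibitor of cell death) to 2.70 (*EDA2R*, a TNF receptor family member). They include *APAF1*, the scaffold of the apoptosome, at 1.40 ± 0.111 in TPC1 and 0.62 ± 0.0695 in K1, and *PHLDA3*, a repressor of AKT, at 2.01 ± 0.0791 and 1.08 ± 0.0524. *NINJ1*, whose product ruptures the plasma membrane of dying cells, rose in TPC1 by 2.49 ± 0.116 (edgeR adjusted p = 2.2e-07), whereas its K1 value of 0.28 fell short of the fold threshold. *PERP*, a tetraspan protein of cell junctions and apoptosis, likewise rose in TPC1 (1.25 ± 0.0743) and reached 0.19 ± 0.0589 in K1. *AEN*, an apoptosis-enhancing nuclease, was raised in both lines, but its K1 value of 0.63 became 0.57 and lost the call without K1 nutlin replicate 2.

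Metabolic and transport genes had the largest median in both lines, 3.11 in TPC1 (9 of 10 raised) and 1.53 in K1 (8 of 9 raised). *FDXR* (chromosome 17, 72858619 to 72869156), which passes electrons from NADPH to mitochondrial cytochromes, measured 23.2 and 28.2 CPM in the DMSO libraries, 28.7 and 32.5 CPM with GSK2830371, 413 and 419 CPM with nutlin and 511 and 551 CPM with both drugs in TPC1. In K1 the values were 22.96 and 20.7 CPM in the DMSO libraries, 35.1 and 33.7 CPM with GSK2830371, 116 and 127 CPM with nutlin and 151 and 149.6 CPM with both drugs. Each step from DMSO through GSK2830371 and nutlin to both drugs was free of overlap in both lines. Nutlin raised *FDXR* by 3.98 ± 0.105 (edgeR adjusted p = 8.8e-09) in TPC1 and by 2.48 ± 0.06896 (edgeR adjusted p = 4.7e-11) in K1. *ABCA12* (chromosome 2, 215796266 to 216003349), a lipid transporter known from keratinocytes, gave 14.8 and 12.5 CPM in the DMSO libraries, 7.102 and 6.85 CPM with GSK2830371, 248 and 233 CPM with nutlin and 216 and 232 CPM with both drugs in TPC1. K1 carried far less, with 0.197 and 0.347 CPM in the DMSO libraries, 0.252 and 0.231 CPM with GSK2830371, 3.22 and 3.32 CPM with nutlin and 4.14 and 5.11 CPM with both drugs, the DMSO values resting on 7 and 13 counts. Despite that gap in level, nutlin raised it strongly in both lines, by 4.11 ± 0.113 (edgeR adjusted p = 1.0e-08) in TPC1 and 3.56 ± 0.2701 (edgeR adjusted p = 3.5e-07) in K1.

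*ACER2* (chromosome 9, 19409007 to 19452503), a Golgi ceramidase that makes sphingosine, was at 3.67 and 2.73 CPM in the DMSO libraries, 3.16 and 3.11 CPM with GSK2830371, 46.6 and 42.3 CPM with nutlin and 60.1 and 52.5 CPM with both drugs in TPC1. It was at 1.81 and 1.71 CPM in the DMSO libraries, 1.98 and 2.11 CPM with GSK2830371, 11.3 and 11.5 CPM with nutlin and 20.8 and 19.8 CPM with both drugs in K1. Nutlin raised it by 3.79 ± 0.151 (edgeR adjusted p = 7.6e-08) in TPC1 and by 2.70 ± 0.118 (edgeR adjusted p = 1.8e-09) in K1, and in K1 the libraries with both drugs separated clearly from those with nutlin. *PANK1* (chromosome 10, 91339254 to 91404999), which catalyses the first step of coenzyme A synthesis, read 10.1 and 10.2 CPM in the DMSO libraries, 8.42 and 8.67 CPM with GSK2830371, 104 and 105 CPM with nutlin and 176 and 214 CPM with both drugs in TPC1. In K1 it read 7.65 and 7.52 CPM in the DMSO libraries, 6.93 and 7.94 CPM with GSK2830371, 11.1 and 12.1 CPM with nutlin and 12.7 and 12.1 CPM with both drugs. The TPC1 rise was 3.33 ± 0.104 (edgeR adjusted p = 1.8e-08), and that of K1 was 0.61 ± 0.101 (edgeR adjusted p = 4.1e-04), which became 0.55 and lost the call without K1 nutlin replicate 2.

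*TIGAR*, a fructose bisphosphatase that restrains glycolysis, rose by 2.48 ± 0.102 in TPC1 and 1.80 ± 0.0677 in K1. The esterase *CES2* rose by 2.90 ± 0.0755 and 1.08 ± 0.0619, the hydrolase *CMBL* by 2.47 ± 0.0829 and 1.53 ± 0.0586, and the potassium chloride cotransporter *SLC12A4* by 1.17 ± 0.0928 and 0.70 ± 0.0538. *GLS2*, a mitochondrial glutaminase, had 0 counts in both DMSO libraries of TPC1, 96 over both nutlin libraries and 187 over both combination libraries. Taking 3 counts over the group as the floor, this is at least 36.5-fold higher with nutlin and at least 68.3-fold higher with both drugs. In K1 its counts per group ran from 0 to 4, too few for a fold change.

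*STEAP3* (chromosome 2, 119981407 to 120023228), a ferrireductase of endosomes, moved against the rest. TPC1 libraries held 76.8 and 71.1 CPM in the DMSO libraries, 68.1 and 67.5 CPM with GSK2830371, 48.2 and 43.2 CPM with nutlin and 30.4 and 28.4 CPM with both drugs. K1 libraries held 71.9 and 74.2 CPM in the DMSO libraries, 79.4 and 72.96 CPM with GSK2830371, 69.3 and 66.6 CPM with nutlin and 57.7 and 52.2 CPM with both drugs. Values fell without overlap from DMSO to nutlin and again to both drugs in TPC1, and in K1 the combination libraries were the lowest. With nutlin it changed by -0.73 ± 0.0939 (edgeR adjusted p = 1.5e-04) in TPC1 and by -0.10 ± 0.0651 (edgeR adjusted p = 0.26) in K1.

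All 10 ligands, receptors and signalling proteins were raised in TPC1 (median 1.53), against 4 of 9 in K1 (median 0.58). *EPHA2* (chromosome 1, 16450832 to 16482564), an ephrin receptor tyrosine kinase, measured 295 and 286 CPM in the DMSO libraries, 346 and 335 CPM with GSK2830371, 690.2 and 666 CPM with nutlin and 1408 and 1508 CPM with both drugs in TPC1. In K1 it measured 147 and 149.7 CPM in the DMSO libraries, 212 and 199 CPM with GSK2830371, 253 and 259 CPM with nutlin and 313 and 322 CPM with both drugs. All 4 treatments of each line occupied separate ranges, in the order DMSO, GSK2830371, nutlin, both. Nutlin raised *EPHA2* by 1.19 ± 0.08095 (edgeR adjusted p = 2.4e-06) in TPC1 and 0.79 ± 0.0522 (edgeR adjusted p = 9.3e-08) in K1. *TSKU* (chromosome 11, 76493295 to 76509197), which encodes a secreted leucine-rich proteoglycan, stood at 33.4 and 35.3 CPM in the DMSO libraries, 30.98 and 34.1 CPM with GSK2830371, 119 and 116 CPM with nutlin and 147 and 149 CPM with both drugs in TPC1. The K1 values were 30.5 and 32.1 CPM in the DMSO libraries, 51.4 and 47.8 CPM with GSK2830371, 89.4 and 88.3 CPM with nutlin and 111 and 111 CPM with both drugs. The untreated lines differed by a log2 value of -0.13 in this gene, which was not called, and nutlin raised it by 1.74 ± 0.0755 (edgeR adjusted p = 1.4e-07) and 1.51 ± 0.0597 (edgeR adjusted p = 6.4e-10).

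*SYTL1* (chromosome 1, 27668511 to 27680428), an effector of Rab27 in vesicle traffic, gave 9.35 and 11.5 CPM in the DMSO libraries, 13.7 and 15.4 CPM with GSK2830371, 109.8 and 110.4 CPM with nutlin and 151 and 174 CPM with both drugs in TPC1. K1 libraries held between 12 and 29 counts, at 0.649 and 0.427 CPM in the DMSO libraries, 0.819 and 0.56 CPM with GSK2830371, 0.993 and 0.369 CPM with nutlin and 0.521 and 0.538 CPM with both drugs. The gene rose by 3.36 ± 0.115 (edgeR adjusted p = 3.1e-08) in TPC1, while the K1 groups overlapped, at 0.32 ± 0.436 (edgeR adjusted p = 0.64). The growth factor genes were raised in TPC1 and not called in K1. These are *KITLG*, the ligand of the KIT receptor, at 1.34 ± 0.117 and 0.36 ± 0.101, and *PGF*, a ligand of the VEGF receptor family, at 1.07 ± 0.108 and 0.48 ± 0.128. Without K1 DMSO replicate 2 the K1 value of *PGF* became 0.72 and was called. *CYFIP2*, part of the WAVE actin regulatory complex, rose in both lines, by 3.36 ± 0.08297 and 2.04 ± 0.0611, as did *BLOC1S2*, which helps to position lysosomes, by 1.71 ± 0.0807 and 0.92 ± 0.06603. *RAP2B*, a small GTPase, and *PLCL2*, a phospholipase C-like protein, were raised in TPC1 by 1.35 ± 0.0715 and 1.30 ± 0.0962 and stayed just under the fold threshold in K1 at 0.50 ± 0.0547 and 0.58 ± 0.09496. The *PLCL2* value in K1 lay so near that threshold that it was called without K1 DMSO replicate 1 (0.67), nutlin replicate 2 or combination replicate 1 (0.59 each). *TP53I11* rose by 1.82 ± 0.07003 in TPC1, and in K1 it had at most 2 counts in any group.

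Genes of transcription, RNA and translation were raised in 6 of 7 cases in TPC1 (median 2.09) and in 7 of 7 in K1 (median 1.02). *PRDM1* (chromosome 6, 106441338 to 106557814), a transcriptional repressor known from plasma cell differentiation, was at 1.61 and 1.498 CPM in the DMSO libraries, 1.19 and 1.03 CPM with GSK2830371, 2.87 and 2.94 CPM with nutlin and 5.98 and 4.29 CPM with both drugs in TPC1. In K1 it was at 1.44 and 1.79 CPM in the DMSO libraries, 1.92 and 1.81 CPM with GSK2830371, 7.81 and 6.79 CPM with nutlin and 8.64 and 8.76 CPM with both drugs. The untreated libraries of the lines overlapped, and K1 libraries exceeded TPC1 libraries once nutlin was present. Under nutlin it rose by 0.88 ± 0.21 (edgeR adjusted p = 0.0061) in TPC1 and 2.17 ± 0.151 (edgeR adjusted p = 1.5e-07) in K1. *ANKRA2* (chromosome 5, 72848015 to 72861492), an ankyrin repeat adaptor that binds class IIa histone deacetylases, measured 4.94 and 6.12 CPM in the DMSO libraries, 6.59 and 7.45 CPM with GSK2830371, 35.2 and 39.95 CPM with nutlin and 64.7 and 76.9 CPM with both drugs in TPC1. It measured 8.49 and 8.32 CPM in the DMSO libraries, 10.05 and 10.97 CPM with GSK2830371, 16.5 and 17.7 CPM with nutlin and 23.7 and 26.03 CPM with both drugs in K1. Nutlin raised it by 2.72 ± 0.128 (edgeR adjusted p = 2.3e-07) and 1.02 ± 0.0906 (edgeR adjusted p = 1.5e-06) in the same order.

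*RPS27L* (chromosome 15, 63418071 to 63450220), a ribosomal protein paralog, gave 44.01 and 49.3 CPM in the DMSO libraries, 46.1 and 43.3 CPM with GSK2830371, 204 and 202 CPM with nutlin and 211 and 225 CPM with both drugs in TPC1. K1 started higher and gave 129.9 and 128 CPM in the DMSO libraries, 141 and 141 CPM with GSK2830371, 226 and 239.7 CPM with nutlin and 238 and 236 CPM with both drugs. Its nutlin responses were 2.09 ± 0.0836 (edgeR adjusted p = 7.8e-08) in TPC1 and 0.85 ± 0.0513 (edgeR adjusted p = 3.6e-08) in K1. The paralog *RPS27* changed by 0.50 in TPC1 and 0.11 in K1 and was called in neither. The authors removed alignments of low mapping quality, and whether any reads of one paralog were counted for the other was not tested. *ZMAT3*, an RNA-binding zinc finger protein that acts on splicing, rose by 3.15 ± 0.124 and 1.48 ± 0.0581, and the helicase *ASCC3* by 1.53 ± 0.1197 and 0.83 ± 0.0759. *GRHL3*, a grainyhead factor of epithelia, rested on few reads, with 9 and 5 counts over the DMSO libraries of TPC1 and K1 and 122 and 19 over the nutlin libraries. Its K1 value of 2.11 ± 0.694 lost the call in DESeq2 (2.17) and without any 1 of the 4 libraries compared (1.89 to 2.37). *IER5* was called in K1 (0.60 ± 0.0726), and this call was lost without K1 DMSO replicate 1 (0.55) or nutlin replicate 1 (0.50).

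Kinases, phosphatases and cell cycle genes were all raised in both lines, 6 of 6 in each, with medians of 1.65 and 0.92. The polo-like kinases *PLK2* and *PLK3* both act in stress responses. *PLK3* (chromosome 1, 45266049 to 45271662) read 7.03 and 8.16 CPM in the DMSO libraries, 8.98 and 10.9 CPM with GSK2830371, 53.9 and 51.3 CPM with nutlin and 102 and 119 CPM with both drugs in TPC1. In K1 it read 20.3 and 18.2 CPM in the DMSO libraries, 22.7 and 22.7 CPM with GSK2830371, 42.5 and 43.96 CPM with nutlin and 59.5 and 61.5 CPM with both drugs. Nutlin raised it by 2.75 ± 0.119 (edgeR adjusted p = 1.3e-07) in TPC1 and 1.17 ± 0.0701 (edgeR adjusted p = 3.6e-08) in K1, and the combination libraries lay above the nutlin libraries in both. *PLK2* (chromosome 5, 57749809 to 57755966) stood at 456 and 489 CPM in the DMSO libraries, 349 and 383 CPM with GSK2830371, 768 and 808 CPM with nutlin and 671 and 814 CPM with both drugs in TPC1. In K1 it stood at 218 and 245 CPM in the DMSO libraries, 291 and 263 CPM with GSK2830371, 394 and 382 CPM with nutlin and 359.7 and 339 CPM with both drugs. *PLK2* rose by 0.70 ± 0.0978 (edgeR adjusted p = 2.5e-04) and 0.75 ± 0.0669 (edgeR adjusted p = 1.7e-06), and its libraries with both drugs overlapped those with nutlin in TPC1 and lay below them in K1. Cyclin G1 (*CCNG1*) rose by 1.83 ± 0.132 and 0.93 ± 0.0712, the CDK4-binding protein *SERTAD1* by 1.88 ± 0.102 and 0.95 ± 0.0707, and the phosphatases *PTP4A1* and *DUSP14* by 0.99 ± 0.0776 and 1.46 ± 0.103 in TPC1 and by 0.67 ± 0.0515 and 0.92 ± 0.064 in K1.

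The responses of the lines to nutlin were then compared gene by gene in a fit of all 16 libraries. Most targets responded less in K1. The log2 fold change was larger in TPC1 for 38 of the 42 genes tested in both lines, and 29 of 44 were called lower in K1 against 10.5% of 16738 genes. The median log2 difference (K1 minus TPC1) was -0.97 over the targets, against -0.028 over all genes. Among the genes that nutlin raised in TPC1, 29 of these 42 targets were called lower in K1, beside 57.4% of all 2671 such genes. The largest called differences (K1 minus TPC1, log2) were -3.07 ± 0.449 (edgeR adjusted p = 7.2e-05) for *SYTL1*, -3.07 ± 0.142 (edgeR adjusted p = 4.8e-10) for *TP53I3*, -2.95 ± 0.3798 (edgeR adjusted p = 2.1e-05) for *SPATA18*, -2.75 ± 0.142 (edgeR adjusted p = 1.0e-09) for *PANK1*, -2.50 ± 0.1801 (edgeR adjusted p = 3.5e-08) for *TP53INP1* and -2.24 ± 0.164 (edgeR adjusted p = 4.4e-08) for *NINJ1*. Of the 32 targets raised in both lines, 21 were called smaller in K1, 1 was called larger and the difference of 10 was not called. The last group includes *PLK2* (0.01 ± 0.133), *TSKU* (-0.27 ± 0.1004), *ABCA12* (-0.58 ± 0.337) and *PTP4A1* (-0.36 ± 0.1002).

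Both genes called higher in K1 (8.73% of all genes) broke this pattern. *PRDM1* responded more in K1 by 1.26 ± 0.261 (edgeR adjusted p = 0.0014), and *STEAP3*, lowered in TPC1, differed by 0.59 ± 0.114 (edgeR adjusted p = 8.1e-04). The *STEAP3* call was lost without any 1 of 6 libraries, namely K1 DMSO, nutlin or combination replicate 1, TPC1 DMSO replicate 1, TPC1 nutlin 3 and TPC1 combination 3 (0.51 to 0.57). That of *PGF* (-0.62 ± 0.178) was lost without any 1 of 4, namely K1 DMSO replicate 2, K1 nutlin replicate 1, TPC1 DMSO 1 and TPC1 nutlin 1 (-0.57 to -0.38). The *PGF* call was also lost with library totals alone (-0.57), edgeR's filterByExpr (-0.57) or GC and length trends removed (-0.53). With no filter the *STEAP3* call was lost (0.56). Across the 42 genes the log2 fold changes of the lines had a Pearson r of 0.69 and a Spearman rho of 0.65, and across all 14509 genes tested in both lines r was 0.64 and rho 0.62. These are descriptions across genes, which are not independent replicates.

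**Figure D2:**
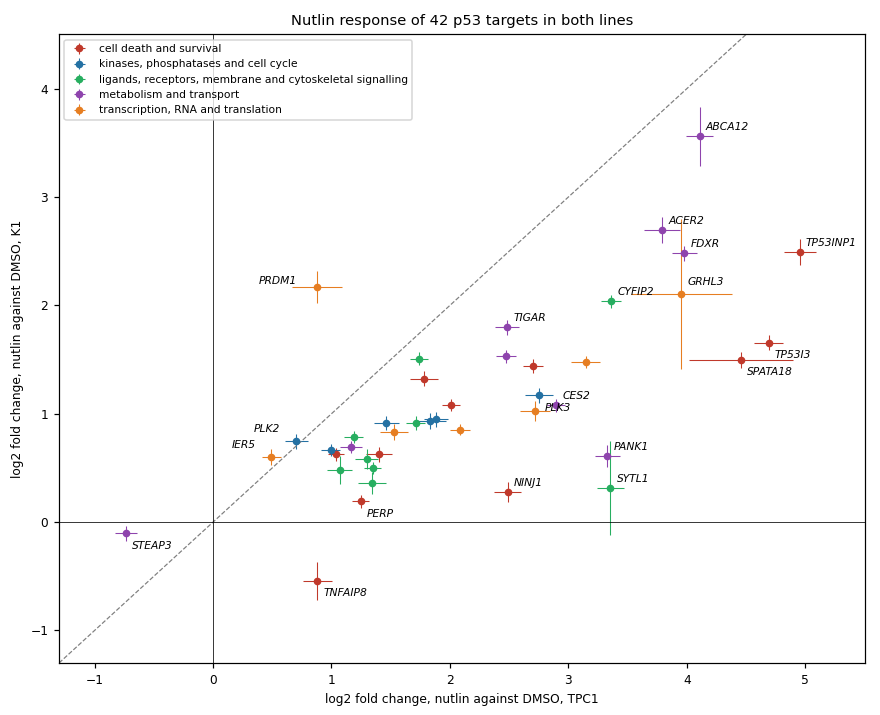
Log2 fold change of nutlin against DMSO in TPC1 (horizontal axis) and K1 (vertical axis) for the 42 p53 targets tested in both lines, coloured by role, with bars of 1 SE and a dashed line of equal response. Of the 42 genes, 38 lie below the dashed line, and *PRDM1* lies furthest above it.

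The levels without drug also differed between the lines for part of the set. In DMSO, 10 of 44 genes were called higher in K1 and 11 lower, against 25% and 21.2% of all genes. *SPATA18* was higher in K1 by 8.41 ± 0.2004 (edgeR adjusted p = 2.9e-15), at 16.6 ± 0.775 against 0.0412 ± 0.0209 CPM. *ABCA12* and *SYTL1* were lower in K1 by log2 differences of -5.61 ± 0.186 and -4.29 ± 0.235, and *TP53I11* had 2 counts over both K1 DMSO libraries where TPC1 had 6131. *RPS27L*, *PLK3* and *ZMAT3* were higher in K1 by 1.46, 1.33 and 1.31. The higher level of *CCNG1* (0.64) was no longer called without TPC1 DMSO 1 (0.53), nor was the lower level of *TRIAP1* (-0.60) without K1 DMSO replicate 1, TPC1 DMSO 3 or the combination library K1 replicate 1 or TPC1 3 (-0.58 to -0.45). Line, culture medium and library series cannot be told apart in these differences.

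PPM1D inhibition alone was compared with DMSO to see whether any target moves without MDM2 inhibition. Few did. In TPC1, 0 genes were raised (background 0.72%) and *ABCA12* was lowered (background 0.681%), by -0.97 ± 0.112 (edgeR adjusted p = 0.005). Its GSK2830371 libraries held 7.10 and 6.85 CPM against 14.8 and 12.5 CPM, so the level was lower in each, and the call was lost without TPC1 GSK2830371 replicate 3 (-0.92). At an unadjusted p under 0.05, edgeR found 10 higher and 6 lower in TPC1, without a share over all genes to set beside them. DESeq2 likewise called 0 raised. *TP53INP1* reached 0.49 ± 0.1198 and was called without TPC1 DMSO 1 (0.67).

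In K1, *TSKU* and *FDXR* were raised by GSK2830371 (background 0.736%) and 0 genes were lowered (background 1.5%) by edgeR or DESeq2, with 3 lower at an unadjusted p under 0.05 in edgeR. *TSKU* changed by 0.66 ± 0.0607 (edgeR adjusted p = 1.3e-04) and *FDXR* by 0.66 ± 0.0714 (edgeR adjusted p = 2.7e-04). Both were higher in each GSK2830371 library than in each DMSO library. Both calls were lost after removal of GC and length trends (0.52 each), and that of *FDXR* without K1 DMSO replicate 2 (0.58). At an adjusted p under 0.05 regardless of fold, 17 of 42 genes were higher in K1, against 8.38% of all genes, and 1 (*ASCC3*, -0.37 ± 0.0769) was lower, against 10.8%. *EPHA2* (0.47 ± 0.0522), *CYFIP2* (0.46 ± 0.0619), *PHLDA3* (0.41 ± 0.0523), *SLC12A4* (0.36 ± 0.0541) and *IER5* (0.35 ± 0.0729) were among the higher ones. GSK2830371 libraries lay above both DMSO libraries for 26 of 42 genes in K1 (31.2% of all genes) and for 12 of 44 in TPC1 (23.9%). When the lines were compared directly, the responses of *TSKU* (0.74 ± 0.102 (edgeR adjusted p = 0.0025)) and *PLK2* (0.62 ± 0.134 (edgeR adjusted p = 0.021)) were called higher in K1, against 0.597% of genes, and 0 were called lower (1.58%) by edgeR or DESeq2, nor at an unadjusted p under 0.05 in edgeR. The *PLK2* call was lost without any 1 of K1 DMSO or GSK2830371 replicate 1, TPC1 DMSO 3 or TPC1 GSK2830371 1 (0.54 to 0.57).

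The combination was next compared with nutlin, which asks what PPM1D inhibition adds once p53 has been freed from MDM2. In TPC1 10 targets were raised further and *STEAP3* was lowered further, against 6.46% and 5.66% of all genes. The receptor *EPHA2* gained most, 1.11 ± 0.0807 (edgeR adjusted p = 4.8e-05), from 678 ± 16.9 to 1458 ± 70.3 CPM. *PLK3* gained 1.08 ± 0.108 (edgeR adjusted p = 2.2e-04), *ANKRA2* 0.92 ± 0.114 (edgeR adjusted p = 6.6e-04) and *PANK1* 0.91 ± 0.0933 (edgeR adjusted p = 2.6e-04). The others were *PRDM1* (0.82 ± 0.194), *PTP4A1* (0.76 ± 0.0771), *TP53I11* (0.74 ± 0.0677), *PGF* (0.71 ± 0.105), *RAP2B* (0.70 ± 0.0701) and *CES2* (0.62 ± 0.07003). By role these are 4 of 10 signalling genes, 2 of 10 metabolic genes, 2 of 7 genes of transcription and 2 of 6 kinases and phosphatases. None of the 11 cell death and survival genes was called by edgeR or DESeq2, although 10 of 11 had a positive value (median 0.26) and 7 were higher at an unadjusted p under 0.05 in edgeR. *TP53I3* (0.40 ± 0.104), *EDA2R* (0.47 ± 0.0765) and *TNFAIP8* (0.54 ± 0.114) passed the adjusted p but not the fold threshold, and *TNFAIP8* was called without combination 1 (0.68) or nutlin 3 (0.61).

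*STEAP3* fell by a further 0.63 on the log2 scale (edgeR adjusted p = 0.0018), a call lost without TPC1 nutlin 1 (-0.54) or combination 3 (-0.57) and after removal of GC and length trends (-0.56). That of *PRDM1* was lost without combination 1 (0.56), nutlin 1 (0.81) or nutlin 3 (0.83). With the replicate number as a block, *GLS2* was also called (0.91), which makes 12 calls in place of 11. The value was positive for 39 of 44 genes, with a median of 0.35 against 0.013 over all genes. *TP53INP1* (-0.10 ± 0.112), *ABCA12* (-0.09 ± 0.0978) and *PLK2* (-0.08 ± 0.0973) were negative and not called.

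In K1 the addition was smaller. *ACER2* was raised further, by 0.83 ± 0.0875 (edgeR adjusted p = 1.0e-04), against 1.16% of all genes, and edgeR and DESeq2 called 0 targets lowered (1.52%), with 2 lower at an unadjusted p under 0.05 in edgeR. The value was positive for 37 of 42 genes, with a median of 0.17 against 0.0044 over all genes, and 12 of 42 were higher at an adjusted p under 0.05 regardless of fold, against 5.89% of all genes. Among the latter were *ANKRA2* (0.54 ± 0.0824), *PLK3* (0.48 ± 0.0657), *NINJ1* (0.34 ± 0.0893), *DUSP14* (0.33 ± 0.0614), *TSKU* (0.32 ± 0.0562), *EPHA2* (0.31 ± 0.0516) and *FDXR* (0.30 ± 0.0617). *ANKRA2* was called as well without K1 nutlin replicate 2 (0.59) or combination replicate 1 (0.60). *STEAP3* was the single target lower at that adjusted p (-0.31 ± 0.0662), against 6.53% of all genes.

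Tested between the lines, the addition was called smaller in K1 for *PANK1* (-0.80 ± 0.134 (edgeR adjusted p = 0.0015)), *EPHA2* (-0.79 ± 0.0951 (edgeR adjusted p = 9.2e-05)), *PTP4A1* (-0.65 ± 0.1 (edgeR adjusted p = 8.0e-04)) and *PLK3* (-0.59 ± 0.137 (edgeR adjusted p = 0.013)) and larger for *ABCA12* (0.60 ± 0.167 (edgeR adjusted p = 0.035)), with a background of 2.56% in each direction. The *PLK3* call was lost without any 1 of K1 nutlin replicate 2, K1 combination replicate 1, TPC1 nutlin 3 or TPC1 combination 3 (-0.57 to -0.49). That of *ABCA12* was lost without any 1 of the K1 nutlin libraries, the TPC1 nutlin libraries, K1 combination replicate 2 or TPC1 combination 1 (0.44 to 0.64). The *ABCA12* call was also lost with edgeR's filterByExpr (0.57) or with GC and length trends removed (0.51). With library totals alone the *PLK3* call was lost (-0.53). The difference for *ACER2* was 0.49 ± 0.146 (edgeR adjusted p = 0.046), below the fold threshold.

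**Figure D3:**
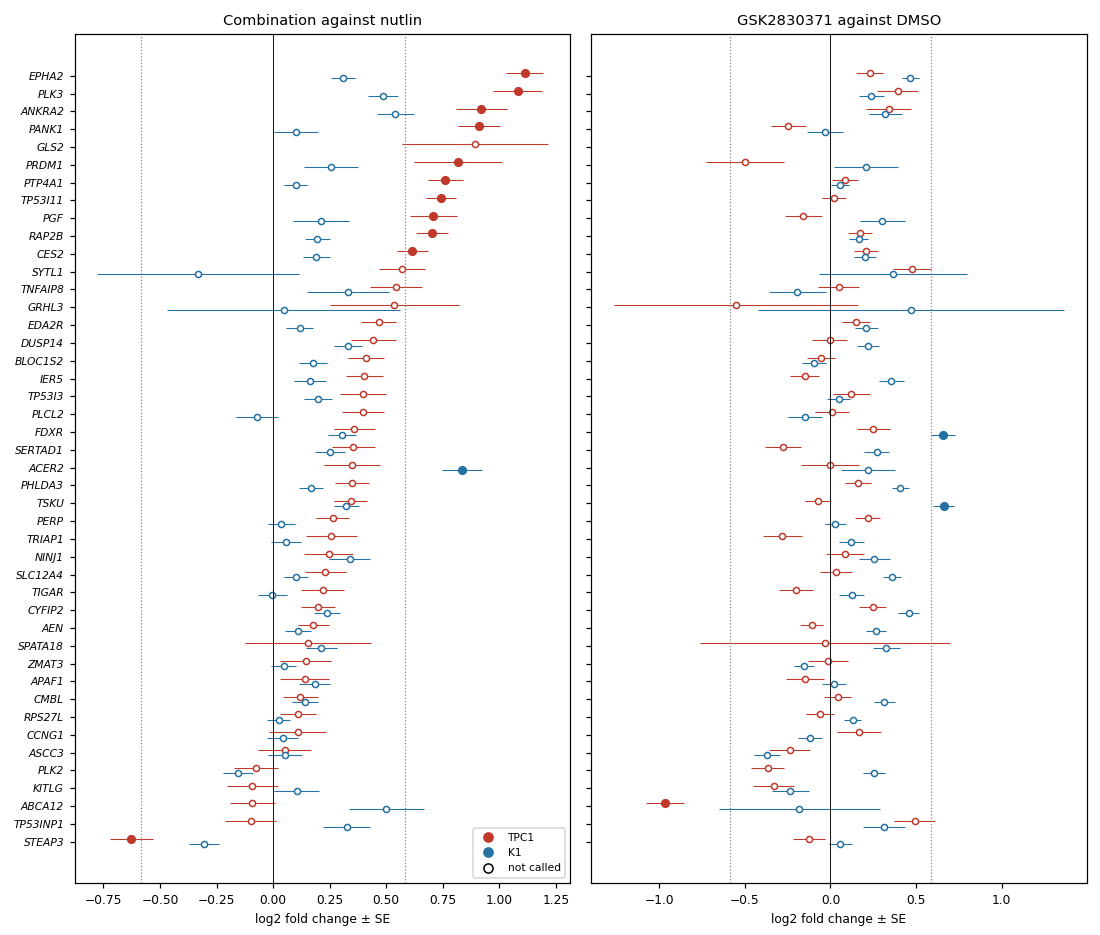
Log2 fold change ± SE of the combination against nutlin (left) and of GSK2830371 against DMSO (right) for each p53 target, with TPC1 in red and K1 in blue. Filled points are called, open points are not, and dotted lines mark a 1.5-fold change. On the left 10 TPC1 genes and *ACER2* in K1 are called to the right and *STEAP3* is called to the left in TPC1. *GLS2* in TPC1 also lies beyond the right dotted line there but is not called. On the right *ABCA12* in TPC1 and *FDXR* and *TSKU* in K1 are called. *GLS2* is left out of the right panel, and K1 points are absent for *GLS2* and *TP53I11*.

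An interaction term tested whether the drugs together exceed the sum of their separate log2 effects. In TPC1 9 targets had a positive interaction, against 2.82% of genes, and 0 had a negative one (3.5%) in edgeR or DESeq2, with 2 negative at an unadjusted p under 0.05 in edgeR. They were *PRDM1* (1.31 ± 0.299), *PANK1* (1.15 ± 0.1395), *EPHA2* (0.88 ± 0.113), *PGF* (0.87 ± 0.151), *ABCA12* (0.87 ± 0.148), *TP53I11* (0.72 ± 0.0963), *PLK3* (0.69 ± 0.1597), *PTP4A1* (0.68 ± 0.109) and *SERTAD1* (0.63 ± 0.143). The value for *ABCA12* joins a fall with GSK2830371 alone to a level with both drugs that differed little from nutlin. The calls of *PANK1*, *EPHA2* and *TP53I11* stood with any 1 library left out, while those of *PRDM1* and *PLK3* were each lost without any 1 of 6 of the 8 libraries (1.17 to 1.42 and 0.58 to 0.82) and that of *SERTAD1* without any 1 of 5 (0.53 to 0.67). Those of *ABCA12* (0.82 in each case) and *PGF* (0.74 and 0.81) were lost without GSK2830371 3 or nutlin 3, and that of *PTP4A1* without GSK2830371 1 or nutlin 1 (0.62 and 0.65). With library totals alone the *SERTAD1* call was lost too (0.56). The 9 became 5 without TPC1 GSK2830371 1 or 3 or nutlin 1 and 4 without nutlin 3, and rose to 13 at most, without combination 1. With the replicate number as a block *ANKRA2* (0.59) and *TP53INP1* (-0.60) were called too. In K1 0 targets were called by edgeR, against 2.44% of genes in either direction, while 14 passed at an unadjusted p under 0.05 and DESeq2 also called 0. *ACER2* came closest, 0.61 ± 0.179 (edgeR adjusted p = 0.052), and was called after scaling by library totals alone (0.67) and with edgeR's filterByExpr or no filter (0.62 each).

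Against DMSO, which shares its libraries with the nutlin comparison, the combination raised 43 of 44 targets in TPC1 (background 22.5%) and lowered *STEAP3* (21.7%). In K1 it raised 36 of 42 (7.62%) and lowered 0 (8.09%) in edgeR or DESeq2, with 1 lower at an unadjusted p under 0.05 in edgeR. The median was 2.27 (log2) in TPC1 and 1.15 in K1. *TP53I3* (5.09 ± 0.124), *TP53INP1* (4.85 ± 0.134) and *FDXR* (4.34 ± 0.107) led the well-expressed genes in TPC1 and *ABCA12* (4.06 ± 0.253), *ACER2* (3.53 ± 0.112) and *TP53INP1* (2.82 ± 0.117) led in K1. *NINJ1* (0.61 ± 0.0895), *PGF* (0.69 ± 0.125) and *RAP2B* (0.70 ± 0.0545) were called in K1 with both drugs and not with nutlin. The calls of *NINJ1* and *PGF* were lost without K1 DMSO replicate 2 (0.49) and K1 DMSO replicate 1 (0.49), respectively, and that of *NINJ1* also without combination replicate 2 (0.55). *GRHL3* (2.15) lost its K1 call in DESeq2 (2.22) and without K1 DMSO replicate 1 or 2 or combination replicate 1 (1.74 to 2.42). *PLK2* lost its K1 call (0.59) without K1 DMSO replicate 1 (0.51) or combination replicate 1 (0.54), and its TPC1 call (0.63) without TPC1 combination 3 (0.49) and with library totals alone (0.57). *PERP*, *TNFAIP8*, *STEAP3*, *KITLG*, *PLCL2* and *SYTL1* were not called in K1. The combined response was called lower in K1 than in TPC1 for 35 of 44 genes (13.8%) and higher for *PRDM1* and *STEAP3* (11.9%). Of the 35, *TP53I11* rests on at most 2 K1 counts per group, and the *PRDM1* call (0.71 ± 0.253) was lost in DESeq2 (0.73) and without any 1 of 6 libraries, namely K1 DMSO replicate 1, either combination library of K1, either DMSO library of TPC1 and TPC1 combination 3 (0.44 to 0.78). The calls of *DUSP14* (-0.58) and *TRIAP1* (-0.56) were lost without TPC1 DMSO 1, that of *TRIAP1* also without TPC1 combination 3 (-0.55), that of *ASCC3* without TPC1 DMSO 3 (-0.58) and that of *ACER2* without K1 DMSO replicate 1, TPC1 DMSO 3 or TPC1 combination 1 (-0.60 to -0.40). That of *TP53I11* was lost without any 1 of the 4 K1 libraries compared. With library totals alone the calls of *ACER2* (-0.53), *DUSP14* (-0.58), *SLC12A4* (-0.52) and *TRIAP1* (-0.57) were lost. That of *SLC12A4* was also lost with GC and length trends removed (-0.57).

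The order of the 4 treatments was also read gene by gene from the group means. A graded rise from DMSO through GSK2830371 and nutlin to both drugs was present for 21 of 44 targets in TPC1, against 16.4% of all genes, and for 29 of 42 in K1, against 10.3%. Both lines showed it in 15 of the 42 targets tested in both, against 4.27% of 14509 genes. Among genes that nutlin raised, the order held for 21 of 42 targets in TPC1 beside 46.8% of 2671 genes, and for 25 of 33 targets in K1 beside 55.8% of 611 genes. The last step alone, with both combination libraries above both nutlin libraries, was present for 37 of 44 targets in TPC1 (32.5% of all genes) and 29 of 42 in K1 (27.7%). Restricted to genes that nutlin raised, these were 36 of 42 beside 47.8% of such genes in TPC1, and 25 of 33 beside 47% in K1. At the first step, the GSK2830371 log2 fold change was above 0 for 22 of 44 targets in TPC1 and for 33 of 42 in K1. Its median for the targets was 0.0047 (TPC1) and 0.21 (K1). The corresponding medians of every gene tested were -0.0063 (TPC1) and 0.018 (K1).

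**Figure D4:**
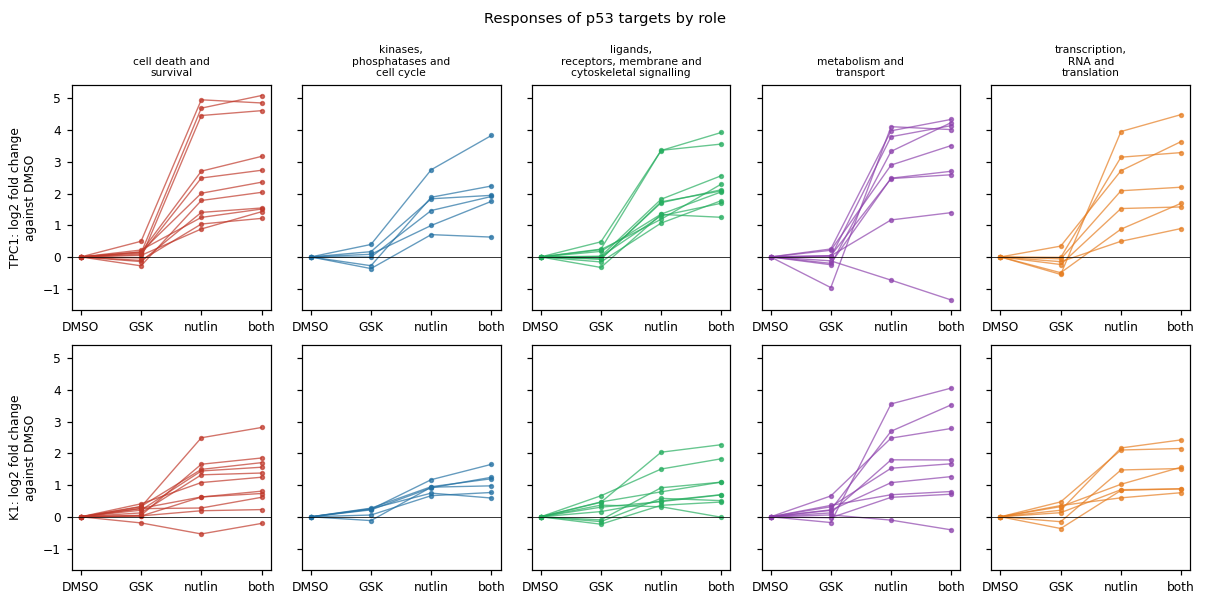
Log2 fold change against DMSO with GSK2830371 (GSK), nutlin and both drugs for each p53 target, in 5 panels by role, with TPC1 in the upper row and K1 in the lower. Each line is 1 gene, and *GLS2* is left out of both rows and *TP53I11* out of the K1 row. Most lines stay near 0 with GSK2830371 and climb with nutlin, more steeply in TPC1, while *ABCA12* falls with GSK2830371 in TPC1. With nutlin the single line below 0 in TPC1 is *STEAP3*, and in K1 *TNFAIP8* and *STEAP3* lie below 0.

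As a comparison within the pathway, 22 other direct p53 targets, among them *CDKN1A*, *MDM2*, *BBC3* and *GDF15*, were read from the same fits. They hold genes of the classes left out here and also others, such as *GDF15*, *ATF3* and *SESN2*. Nutlin raised 20 of 22 in TPC1 and 17 of 22 in K1, with medians of 2.36 and 1.26, and lowered *FANCC* in both lines. The combination raised 21 and 19 of them against DMSO. Beyond nutlin, it raised 8 of 22 in TPC1 (median 0.50) and 7 of 22 in K1 (median 0.33), against 6.46% and 1.16% of all genes. The 44 targets described above had 10 of 44 and 1 of 42. The 7 in K1 were *ATF3*, *CDKN1A*, *GDF15*, *MDM2*, *PMAIP1*, *SESN2* and *TP73*, and the list was chosen with earlier results of these data known. The shares were not tested against each other. The nutlin response was called lower in K1 for 17 of these 22 genes.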

How the data were processed

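The authors sequenced polyadenylated RNA of TPC1 and K1 cells, aligned the stranded reads to GRCh37 with TopHat2 2.0.13, removed alignments of low mapping quality and counted reads per gene with HTSeq 0.6.1 on the UCSC hg19 annotation. The deposited values are raw read counts per gene symbol, without normalization. All columns were used and 0 were left unmapped. The 4 TPC1 columns numbered 3 match no replicate number in the labels and were assigned to their treatment alone. Replicates differed beyond counting noise (chi-square per gene 11.6 to 48.3 in TPC1 and 4.96 to 8.16 in K1), so none was a repeat deposit.

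Genes above 0.1 CPM in at least 2 libraries were kept, 15273 in TPC1 and 15900 in K1, and 16738 in the fit of all 16 libraries. Counts were fitted with edgeR 4.0.16 in R 4.3.3 (limma 3.58.1, TMM scaling, quasi-likelihood test, Benjamini-Hochberg over all genes tested), with all treatments of a line in one model. The interaction is the combination minus nutlin minus GSK2830371 plus DMSO. DESeq2 1.42.0 served for alternatives. The fit has 4 residual degrees of freedom in each line and 8 over both lines. The common dispersion, a measure of spread beyond counting noise, was 0.00828 in TPC1 and 0.00273 in K1. The lines were therefore not tested at equal power. On simulated data based on the nutlin comparison, 100% of 200 changed genes were recovered in each line, with 3 false calls in TPC1 and 1 in K1. The changes were set above the fold threshold, in well-expressed genes, with a single spread for all genes and no replicate effect. The recovery therefore does not bear on calls near the threshold or on genes with few reads.

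Replicate numbers were checked by correlating the log2 deviations of same-numbered libraries, with 0.5 CPM added, across 6 pairs of treatments. They gave 0.494 to 0.698 in TPC1 over 12318 genes, so the numbers pair the libraries there, and -0.359 to 0.379 in K1 over 12531 genes, where they do not. Calls that a block on the number changes are given beside the result or in the last section.

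The targets, the role groups, the 22 other p53 targets and the tests were chosen with earlier results of these data known. Values in every library are given for 16 genes by rule: the 3 largest nutlin responses per line at 5 CPM or more, the 4 largest called differences between lines each way, up to 6 called by the combination against nutlin, those lowered by nutlin, up to 4 called by GSK2830371, *PLK3* and *TP53I3*, and *RPS27L* and *PLK2* beside their paralogs. GC content and length were known for 87% to 87.8% of genes tested. The motif scan used the GENCODE annotation and the GRCh37 genome, and its 2 mismatches and 2500 bp were set after an exact search had found few matches. Columns of fold changes by the authors were not used.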

Additional observations from a re-analysis of the deposited data

Results flagged for a closer look

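The following results stand out because the 2 lines answered the same drug differently, as tested by an interaction of line and treatment in the edgeR fit of all 16 libraries. Values are log2 differences of the response, K1 minus TPC1. Groups of 2 libraries were too small to look for a single library far from the rest.

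Responses to nutlin were mostly smaller in K1. The response was smaller in K1 for *SYTL1* (-3.07), *TP53I3* (-3.07), *SPATA18* (-2.95), *PANK1* (-2.75), *TP53INP1* (-2.50), *NINJ1* (-2.24), *CES2* (-1.86), *ANKRA2* (-1.72), *ZMAT3* (-1.71), *PLK3* (-1.61) and *FDXR* (-1.53). It was also smaller for *TNFAIP8* (-1.46), *CYFIP2* (-1.36), *EDA2R* (-1.29), *RPS27L* (-1.27), *ACER2* (-1.13), *PERP* (-1.09), *KITLG* (-1.02), *CMBL* (-0.97), *SERTAD1* (-0.97), *PHLDA3* (-0.96) and *CCNG1* (-0.93), and for *RAP2B* (-0.88), *BLOC1S2* (-0.83), *APAF1* (-0.82), *PLCL2* (-0.75), *ASCC3* (-0.73), *TIGAR* (-0.72) and *PGF* (-0.62). The K1 response was larger for *PRDM1* (1.26), and *STEAP3* (0.59), lowered in TPC1, stayed nearer its untreated level in K1.

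GSK2830371 alone gave a higher value in K1 for *TSKU* (0.74) and *PLK2* (0.62). What the combination added to nutlin was less in K1 for *PANK1* (-0.80), *EPHA2* (-0.79), *PTP4A1* (-0.65) and *PLK3* (-0.59), and more for *ABCA12* (0.60), a gene with 4.14 and 5.11 CPM in the K1 combination libraries. Line, culture medium and library series cannot be told apart in these differences, and the causes were not tested.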

How the results depend on the processing

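Counts of called targets were recomputed with DESeq2 size factors, library totals alone, edgeR's filterByExpr, no filter, DESeq2's Wald test, a fit of the compared groups only, the replicate number as a block, GC and length trends removed (an alternative chosen after seeing the data) and each library left out in turn. Leaving libraries aside, 111 counts stayed within 1.5 times the reported one and 5 moved. The GSK2830371 count in K1 went from 2 to 0 with GC and length trends removed. The K1 interaction count went from 0 to 1 with library size alone, filterByExpr or no filter. The count of GSK2830371 responses that differ between lines went from 2 to 1 with library size alone. Over the 44 targets, with the fits that leave out a library included, 117 calls were lost, 78 were gained and 0 changed direction, and the causes were not tested. With library totals alone the graded order was present for 25 targets in TPC1 and 30 in K1.

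With 1 library left out, the spread of its lone partner was taken from the other groups. The called targets then ranged from 43 to 43 in TPC1 and 31 to 34 in K1 with nutlin, 0 to 2 and 1 to 2 with GSK2830371, 43 to 44 and 34 to 36 with the combination, 9 to 12 and 1 to 2 for the combination against nutlin, and 4 to 13 and 0 to 0 for the interaction. Between the lines they ranged from 29 to 33 for nutlin, 1 to 3 for GSK2830371, 34 to 37 for the combination, 3 to 5 for the combination against nutlin and 21 to 22 untreated. The low TPC1 GSK2830371 count of 0 came without GSK2830371 3 and the high one of 2 without DMSO 1.

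The fit with the replicate block called 43, 1, 44, 12 and 11 targets in TPC1 (nutlin, GSK2830371, combination, combination against nutlin, interaction), 33, 2, 36, 1 and 0 in K1, and 32, 2, 37 and 5 for the differences between lines in nutlin, GSK2830371, combination and combination against nutlin. Beside *GLS2*, *ANKRA2* and *TP53INP1* in TPC1, it added *DUSP14* (-0.59) to the nutlin differences and *ANKRA2* (0.67) to the untreated ones, and dropped *TRIAP1* (-0.53) from the latter. It changed no other call.

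Reads limit *GLS2* and *TP53I11* in K1, where a group held at most 4 counts, *GRHL3* in both lines and *SPATA18* in untreated TPC1. They also limit *ABCA12* in untreated K1 (7 and 13 counts) and *SYTL1* in K1 (12 to 29 counts per library). The differences between lines in the nutlin response of *SYTL1* and *SPATA18* rest on such low counts in 1 of the lines.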
